A study of Homo sapiens with 4 samples.

Results

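The interferon response genes described here are 38 interferon-stimulated genes, taken by symbol from a list chosen with earlier results of these data known. They were sought among 26364 gene symbols counted in 4 mRNA libraries of NCI-H460, a cell line from a human lung cancer of the non-small cell type. All 38 symbols were in the count tables. Of these, 31 reached 1 CPM (the count scaled to library size) in at least 2 libraries and were tested, as were 13378 symbols in all. All 4 libraries were of this line, with no other alteration in the labels. Cells of the group DMSO 0 Gy received no radiation and then the solvent DMSO for 48 h, and those of DMSO 4 Gy received 4 Gy of gamma radiation and then DMSO for 48 h. DZNep 0 Gy and DZNep 4 Gy received the same doses and then 2 uM of 3-deazaneplanocin A (DZNep), an inhibitor of S-adenosylhomocysteine hydrolase that slows cellular methylation reactions, including those of the histone methyltransferase EZH2. Library totals were 112461380 to 136594350 counts. There was 1 library in each group and no replicate, and the labels do not say whether the libraries came from separate cultures.

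The epithelial keratin genes KRT8, KRT18 and KRT19 were abundant in every library (710.0, 634 and 154 CPM in DMSO 0 Gy), while EPCAM and CDH1 stayed under 1 CPM in all 4. KRT8 and KRT18 rose with DZNep (log2 fold changes 1.35 and 1.58), while KRT19 did not pass (log2 fold change -0.27, edgeR adjusted p = 0.225). EPCAM was lower in both DZNep libraries (22 and 5 counts, against 68 and 50 in DMSO at 0 and 4 Gy). CDH1 was higher in both (34 and 39 counts against 28 and 23). Among blood and immune markers, CD14 stood at 7.34 to 9.86 CPM and LYZ under 1 CPM in every library. The defining leukocyte gene PTPRC had 8 counts in DMSO 0 Gy and 0 in the other libraries, CD3E had at most 1 and HBB had 0 throughout. Summed fibroblast markers stood at 23.9 and 27.0 CPM in DMSO and at 15.3 and 19.0 CPM in DZNep, and their part in the DZNep results was not tested. These sums were mostly COL1A1 and COL3A1 (13.9 and 9.02 CPM in DMSO 0 Gy), both lower with DZNep. The other fibroblast markers did not separate by drug. In DMSO at 0 and 4 Gy, then DZNep at 0 and 4 Gy, LUM had 55, 79, 87 and 62 counts. In that order DCN had 75, 47, 0 and 63, and COL1A2 had 0, 9, 5 and 1. Summed endothelial markers were higher with DZNep at a very low level, at 0.246 and 0.259 CPM in DMSO and 0.944 and 0.652 CPM in DZNep. In bulk RNA, fewer cells of a kind and less RNA per cell cannot be told apart.

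Interferon-stimulated genes are switched on when a cell senses viral nucleic acid or receives an interferon. Cytosolic RNA sensors such as RIG-I, the product of DDX58, and MDA5, the product of IFIH1, signal through MAVS to the transcription factors IRF3 and IRF7, which induce interferon genes. Secreted interferons bind their receptors, and the kinases JAK1 and TYK2 then activate a complex with STAT2 and IRF9 that binds the interferon-stimulated response element (ISRE) in target promoters. Many of these genes hold a low level in epithelial lines without any infection.

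Most members were expressed at a low level in these cells. Only 11 of the 38 reached 10 CPM in any library. To set different genes side by side, levels were divided by the length of annotated exon. OAS1 led in DMSO 0 Gy with 18.9 CPM per kb. The exonuclease gene ISG20 had 10.8 and IFI6, which encodes a small membrane protein, had 9.35. That length joins the exons of all annotated transcripts of a gene, 4.95 kb for OAS1 and 7.36 kb for ISG20. A gene that mainly makes a shorter transcript is thus understated, and the part of this in the order was not tested. IFI35 followed with 4.60 and USP18 with 4.44 CPM per kb. With 1 library per group, the spread of these levels is unknown, and neighbours in that order cannot be separated. The 7 members left out of the test were IFIT2, OASL, HERC5, MX2, RSAD2, BST2 and XAF1. RSAD2, the gene of the antiviral enzyme viperin, had 4, 1, 2 and 8 counts in DMSO at 0 and 4 Gy and then in DZNep at 0 and 4 Gy. BST2, the gene of tetherin, which holds virions at the cell surface, had 15 to 18 counts per library, MX2 4 to 17 and the apoptosis gene XAF1 10 to 27, so that counts of this size could show only large changes of these 4.

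**Figure D1:**
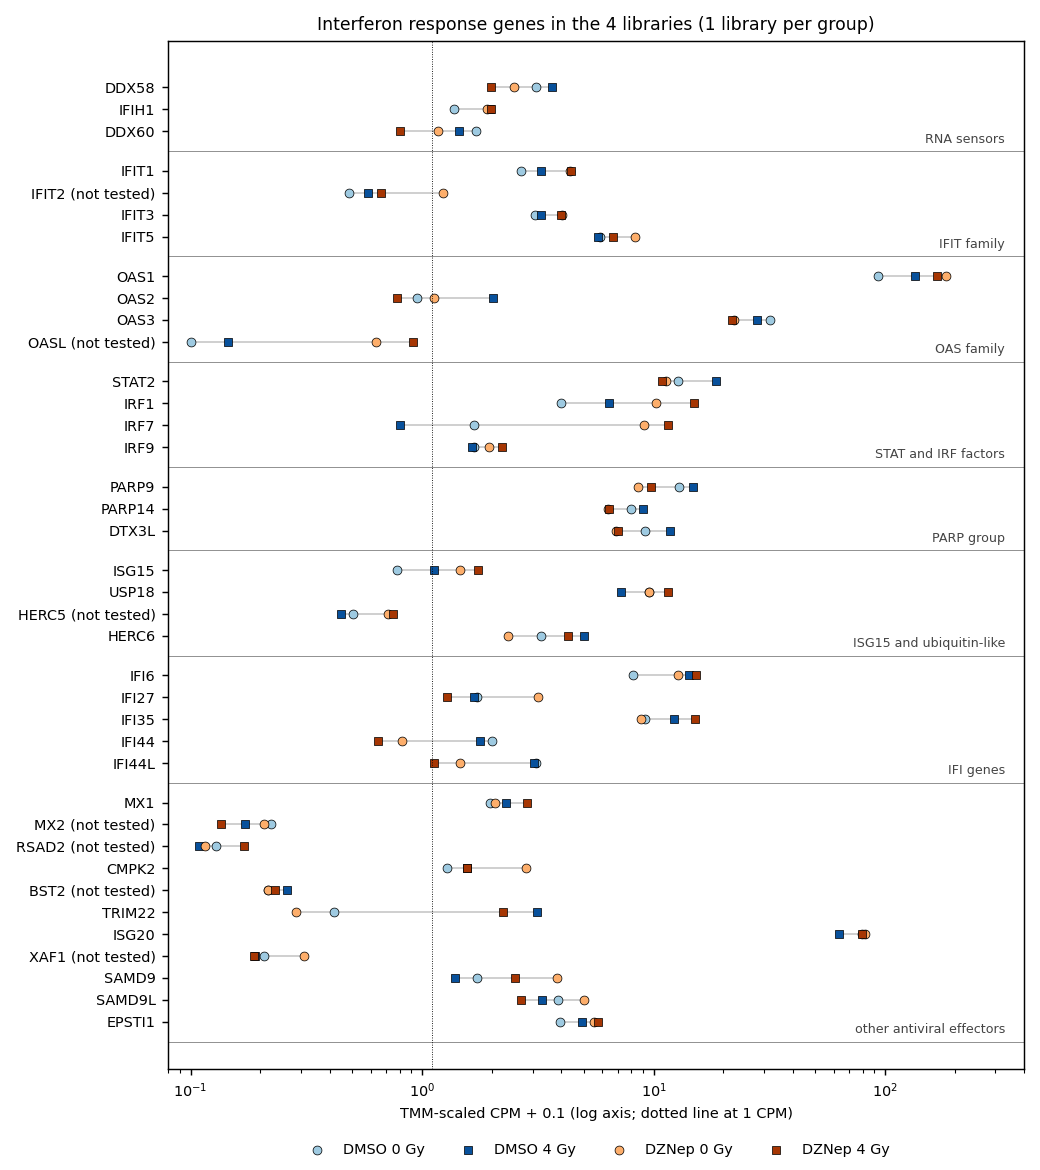
TMM-scaled CPM plus 0.1 (log axis) of the 38 members in the 4 libraries, 1 point per library, ordered by subgroup, with members that were not tested marked as such. IRF7 spans 0.704 to 11.4 CPM with both DZNep libraries at the high end, TRIM22 separates by dose, and OAS1 and ISG20 lie far to the right of the other members.

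Promoter letters were read from RefSeq (GRCh38.p14, 250 bases before to 50 after each gene's start), where 31 of the 38 members had an entry. The 7 without one were IFIT2, OAS2, OASL, IRF7, USP18, MX2 and TRIM22. The ISRE core was searched as GAAANNGAA on either strand. It occurred in 20 of the 31 member promoters (64.5%) and in 8.11% of all 35116 promoters of that length. The gamma-activated site (GAS), an element of interferon gamma response, searched as TTCNNNGAA (its own reverse complement), occurred in 9 of 31 (29%) against 7.66%. The NF-kB motif, searched by its degenerate consensus on either strand, occurred in 7 of 31 (22.6%) against 11.3%. A match can lie in more than 1 motif. Windows are shown for IFI44 and IFI44L, which fell with DZNep, for SAMD9, which rose, for DTX3L and PARP14, and for ISG15 and IFIT1, which did not pass the test. Capitals mark the ISRE core.
IFI44, chr1:78649747-78649805, plus strand: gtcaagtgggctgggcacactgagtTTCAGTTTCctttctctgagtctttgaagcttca
IFI44L, chr1:78620259-78620408, plus strand: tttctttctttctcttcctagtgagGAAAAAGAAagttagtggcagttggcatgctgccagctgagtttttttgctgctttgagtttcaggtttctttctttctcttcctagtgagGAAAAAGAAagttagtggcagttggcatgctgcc
SAMD9, chr7:93118082-93118140, minus strand: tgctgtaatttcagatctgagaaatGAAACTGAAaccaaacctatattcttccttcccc
DTX3L, chr3:122564307-122564365, plus strand: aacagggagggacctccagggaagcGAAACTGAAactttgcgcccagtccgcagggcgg
PARP14, chr3:122680785-122680843, plus strand: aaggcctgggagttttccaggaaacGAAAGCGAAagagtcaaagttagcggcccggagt
ISG15, chr1:1013359-1013429, plus strand: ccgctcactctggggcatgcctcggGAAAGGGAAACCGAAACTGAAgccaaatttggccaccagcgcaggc
IFIT1, chr10:89392483-89392554, plus strand: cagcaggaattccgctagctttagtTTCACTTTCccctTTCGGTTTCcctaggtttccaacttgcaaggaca
The promoters of IRF1 and OAS1, which both rose with DZNep, held no match to GAAANNGAA in these 300 bases. That pattern misses GAAA repeats that lie 1 base apart. The OAS1 promoter holds such a stretch, GAAACGAAAC, outside the window around its GAS match. Promoters of DDX58 and XAF1, also without a match, hold the same letters. The lack of a match therefore does not show that these promoters lack an ISRE. In the windows of IRF1 and OAS1, capitals mark the GAS match and, in IRF1, also the NF-kB match.
IRF1, chr5:132490789-132490922, minus strand: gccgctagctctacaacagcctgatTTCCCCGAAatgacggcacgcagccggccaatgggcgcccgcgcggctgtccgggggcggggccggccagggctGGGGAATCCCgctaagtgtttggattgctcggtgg
OAS1, chr12:112906769-112906827, plus strand: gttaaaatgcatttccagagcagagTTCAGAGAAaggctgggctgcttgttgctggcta
Promoters with an ISRE core match thus include those of SAMD9, which rose with DZNep, of IFI44 and IFI44L, which fell, and of members that did not pass the test. IRF7, which also rose with DZNep, could not be placed here for want of an entry. IFI44L carries the same 9 letters in both of its matches, inside a longer stretch that is repeated in the window. In ISG15 the 3 matches overlap one another.

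**Figure D2:**
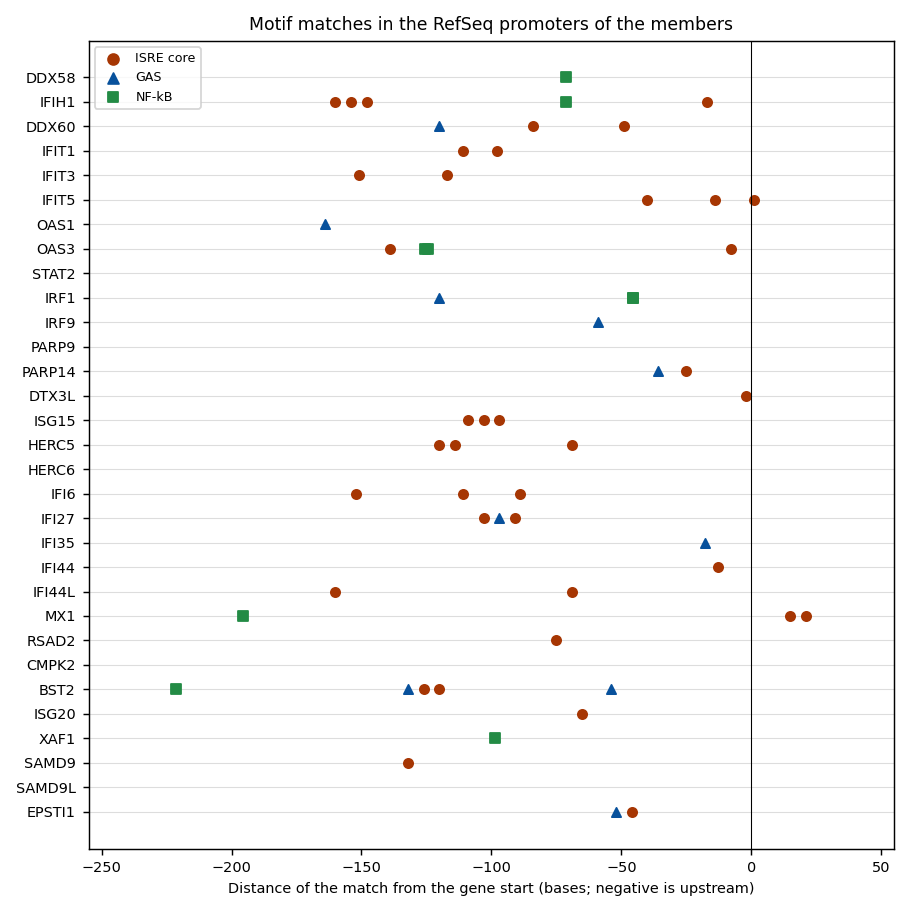
Motif matches by distance in bases from the gene start, for the 31 members with a promoter entry, with circles for the ISRE core, triangles for GAS and squares for NF-kB. ISRE core matches lie mostly within the 165 bases before the start, and STAT2, PARP9, HERC6, CMPK2 and SAMD9L have no match to any of the 3 motifs in the window.

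With DZNep, the regulators IRF7 and IRF1 and the effectors SAMD9 and OAS1 rose, and IFI44, IFI44L and PARP9 fell. The DZNep effect set the 2 DZNep libraries against the 2 DMSO libraries with dose as an additive term, by edgeR's quasi-likelihood test with calls at an adjusted p under 0.05 over all tested genes. Of 31 tested members, 4 rose (12.9%) and 3 fell (9.68%), beside 10.8% and 12.3% of all 13378 tested genes, so the share of members called was near the background in both directions. Shares of all tested genes called, here and below, are at an adjusted p under 0.05 by edgeR. At an unadjusted p under 0.05, 2239 of the 13378 genes were higher with DZNep and 2582 lower, against 5 and 7 of the 31 members. The median log2 fold change was 0.19 over the tested members and -0.015 over all tested genes. With dose left out of the model only IRF7 was still called by edgeR, and IRF1, IFI44, IFI44L, SAMD9, OAS1 and PARP9 then had adjusted p-values of 0.0602, 0.0550, 0.0624, 0.122, 0.151 and 0.157. Both DZNep libraries stood above both DMSO libraries for 11 of 31 members, beside 26.3% of all tested genes, and below both for 9 of 31, beside 27.8%. The ratio of DZNep to DMSO had the same sign at 0 and 4 Gy, in pairs with no library in common, for 26 of 31 members (83.9%) against 74.2% of all tested genes. Nothing shows the 4 libraries to be independent cultures, so the spread behind a p-value here may be technical. That spread is how the libraries differ from the additive model, with 1 residual degree of freedom per gene. The fit draws it toward a trend over all tested genes (11.5 prior degrees of freedom), so each p-value rests mostly on the spread of other genes. The library with the highest level was DMSO 0 Gy for 4 of the 31 members, DMSO 4 Gy for 8, DZNep 0 Gy for 8 and DZNep 4 Gy for 11 (12.9%, 25.8%, 25.8% and 35.5%), against 28.0%, 25.6%, 21.4% and 25.1% of all tested genes.

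**Figure D3:**
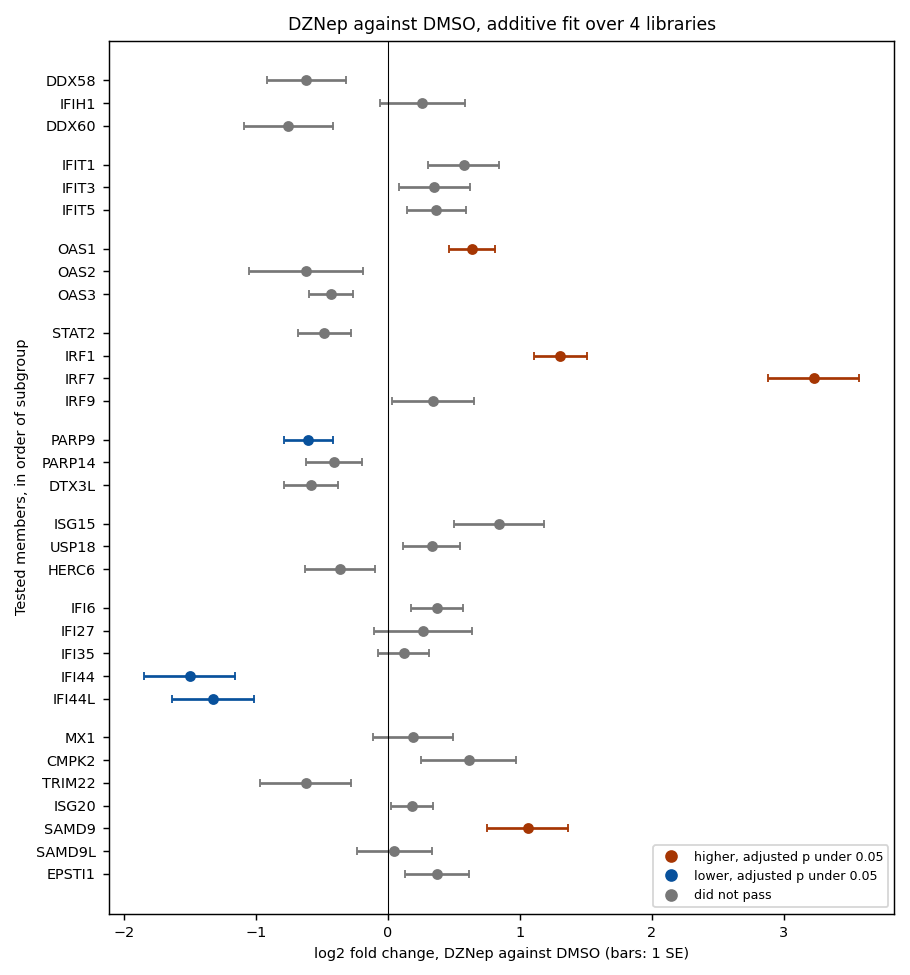
Log2 fold change of DZNep against DMSO for the 31 tested members, with bars of 1 SE, ordered by subgroup. IRF7 stands at 3.23, IRF1 at 1.31 and SAMD9 at 1.06, with IFI44 and IFI44L at -1.50 and -1.33 at the other end, and most other members lie within 1 of zero.

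By role, the median log2 fold change with DZNep was 0.82 over the 4 STAT and IRF factors, 0.37 over 3 IFIT genes, 0.33 over 3 genes of the ISG15 group, 0.19 over 7 other effectors and 0.12 over 5 IFI genes. It was -0.62 over the 3 RNA sensors, -0.58 over the 3 PARP genes and -0.43 over 3 OAS genes. Groups of this size mix directions, as the members below show.

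Of the 4 transcription factors, 2 rose and 0 fell with DZNep (edgeR; 1 lower at an unadjusted p under 0.05 and 0 by DESeq2), beside 10.8% and 12.3% of all tested genes. IRF7, which amplifies the induction of interferon genes, stood at 1.58 CPM in DMSO 0 Gy, 0.704 in DMSO 4 Gy, 9.03 in DZNep 0 Gy and 11.4 in DZNep 4 Gy. Both DZNep libraries were far above both DMSO libraries (9.36-fold; log2 fold change 3.23, SE 0.34, adjusted p = 4.87e-05). The size depends on the DMSO 4 Gy library, which had 79 counts: the 2-library ratio was 5.65-fold at 0 Gy (log2 2.50, 95% counting interval 2.30 to 2.73) and 15.9-fold at 4 Gy (log2 3.99, 3.69 to 4.36). Such intervals are exact conditional binomial intervals that cover counting error only. IRF1, a factor induced by interferon gamma and by NF-kB, stood at 3.89 and 6.32 CPM in DMSO at 0 and 4 Gy, against 10.1 and 14.9 CPM in DZNep. It was higher in each DZNep library than in either DMSO library, and within each drug higher at 4 Gy (2.47-fold with DZNep; log2 fold change 1.31, SE 0.20, adjusted p = 0.000694). An antisense gene, C5orf56, overlaps 22% of the exon length of IRF1 but had 21 to 36 counts per library, against 538 to 1693 for IRF1; without strand their reads cannot be told apart. STAT2 and IRF9, subunits of the complex that binds the ISRE, did not pass. STAT2 stood at 12.7 and 18.5 CPM in DMSO and 11.2 and 10.8 CPM in DZNep (log2 fold change -0.48, SE 0.20, adjusted p = 0.103). IRF9 stood at 1.57 and 1.55 CPM in DMSO and at 1.84 and 2.12 CPM in DZNep (log2 fold change 0.34, SE 0.31, adjusted p = 0.465), and 48.4% of its exon length is shared with a read-through gene model.

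OAS1, OAS3 and OAS2 are neighbours and encode enzymes that make the short oligoadenylates that activate RNase L; OAS1 rose with DZNep, and OAS3 and OAS2 did not pass. OAS1 stood at 93.4 and 135 CPM in DMSO at 0 and 4 Gy, against 183 and 167 CPM in DZNep, and rose 1.56-fold (log2 fold change 0.64, SE 0.18, adjusted p = 0.0203). Its rise was larger without radiation (1.96-fold) than after 4 Gy (1.24-fold), with DMSO 4 Gy between DMSO 0 Gy and the DZNep libraries. OAS3, next to OAS1 on chromosome 12, was lower in both DZNep libraries (22.2 and 21.8 CPM against 31.6 and 27.9) and did not pass (log2 fold change -0.43, SE 0.17, adjusted p = 0.0795). OAS2 was at 0.854, 1.93, 1.02 and 0.678 CPM (DMSO at 0 and 4 Gy, then DZNep at 0 and 4 Gy), with irradiated DMSO the highest and no separation by drug (log2 fold change -0.62, SE 0.43, adjusted p = 0.330). OASL, a relative without oligoadenylate synthetase activity that enhances RIG-I signalling, was too low to be tested. It had 0 counts in DMSO 0 Gy and 5 in DMSO 4 Gy against 69 in DZNep 0 Gy and 92 in DZNep 4 Gy. Taking the 0 as 3 counts in that library, the level at 0 Gy was at least 24.6-fold higher with DZNep, and at 4 Gy the log2 ratio was 3.76 (2.91 to 5.84). When genes of low count were kept in the test, OASL was called higher too.

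The falls were led by the adjacent genes IFI44L and IFI44, which encode related cytoplasmic proteins of the interferon response. IFI44 stood at 1.90 and 1.68 CPM in DMSO at 0 and 4 Gy, against 0.720 and 0.546 CPM in DZNep, a 2.84-fold fall (log2 fold change -1.50, SE 0.34, adjusted p = 0.00781). IFI44L stood at 3.00 and 2.95 CPM in DMSO and at 1.36 and 1.03 CPM in DZNep, a 2.51-fold fall (log2 fold change -1.33, SE 0.31, adjusted p = 0.00977). For both genes the 2 DMSO libraries lay close together and the DZNep libraries well below them. The other IFI genes did not pass. IFI6 was at 8.09 to 15.2 CPM (log2 fold change 0.37, SE 0.20, adjusted p = 0.200) with DMSO 0 Gy alone at the low end, and IFI35 at 8.72 to 14.9 CPM (log2 fold change 0.12, SE 0.19, adjusted p = 0.694). IFI27, a mitochondrial protein gene, was highest in DZNep 0 Gy (3.06 CPM) and lowest in DZNep 4 Gy (1.18 CPM), with 1.63 and 1.57 CPM in DMSO (log2 fold change 0.27, SE 0.37, adjusted p = 0.640).

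All 3 members of the PARP group, which lie near one another, were lower in both DZNep libraries than in both DMSO libraries, beside 27.8% of all tested genes. Of the 3, 1 passed the test, beside 12.3% of all tested genes called lower. PARP9, which forms a complex with the ubiquitin ligase DTX3L, stood at 12.8 and 14.7 CPM in DMSO at 0 and 4 Gy, against 8.46 and 9.64 CPM in DZNep (1.52-fold lower; log2 fold change -0.60, SE 0.18, adjusted p = 0.0330). Its ratio was nearly the same at both doses (-0.60 and -0.61). DESeq2 gave an adjusted p of 0.0504 for it, so the call is at the edge of the threshold. DTX3L, its head-to-head neighbour, was at 9.07 and 11.6 CPM in DMSO and 6.81 and 6.89 CPM in DZNep (log2 fold change -0.58, SE 0.20, adjusted p = 0.0561), and passed only under plain library size scaling. PARP14, a mono-ADP-ribosyltransferase gene nearby, was at 7.87 and 8.88 against 6.28 and 6.30 CPM (log2 fold change -0.41, SE 0.21, adjusted p = 0.180). Exons of PARP9 and DTX3L overlap over 2.43% and 3.7% of their lengths on opposite strands, where the counts of both are uncertain.

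Among the other antiviral effectors, 1 of 7 tested members rose with DZNep and 0 fell (edgeR; 0 lower also at an unadjusted p under 0.05 and by DESeq2), near the 10.8% and 12.3% of all tested genes. SAMD9, a cytoplasmic restriction factor of poxviruses, stood at 1.63 and 1.28 CPM in DMSO at 0 and 4 Gy, against 3.72 and 2.43 CPM in DZNep (2.08-fold; log2 fold change 1.06, SE 0.31, adjusted p = 0.0255). The adjacent paralog SAMD9L did not show this pattern, with 3.76 and 3.20 CPM in DMSO and 4.92 and 2.59 CPM in DZNep (log2 fold change 0.047, SE 0.28, adjusted p = 0.922). CMPK2, a mitochondrial nucleotide kinase gene, was high in 1 library only, at 2.71 CPM in DZNep 0 Gy against 1.18, 1.46 and 1.47 CPM in DMSO 0 Gy, DMSO 4 Gy and DZNep 4 Gy (log2 fold change 0.61, SE 0.36, adjusted p = 0.250). EPSTI1 was a little higher in both DZNep libraries (5.46 and 5.66 CPM against 3.84 and 4.81; log2 fold change 0.37, SE 0.24, adjusted p = 0.297). MX1, a dynamin-like GTPase gene that blocks influenza virus, ranged from 1.87 to 2.74 CPM (log2 fold change 0.19, SE 0.30, adjusted p = 0.686). ISG20, the most abundant of these by CPM, ranged from 63.1 to 81.5 CPM with DMSO 4 Gy at the low end (log2 fold change 0.18, SE 0.16, adjusted p = 0.432).

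The RNA sensors held 0 calls by edgeR and by DESeq2, with 1 lower and 0 higher at an unadjusted p under 0.05. DDX58 stood at 3.00 and 3.55 CPM in DMSO and 2.38 and 1.88 CPM in DZNep (log2 fold change -0.62, SE 0.30, adjusted p = 0.157), and DDX60, a helicase that assists RIG-I, at 1.61 and 1.35 against 1.08 and 0.704 CPM (log2 fold change -0.75, SE 0.34, adjusted p = 0.129). For both, the DZNep libraries lay below the DMSO libraries, as they did for 27.8% of all tested genes. IFIH1 differed, with DMSO 0 Gy lowest at 1.27 CPM and the other 3 libraries between 1.81 and 1.88 CPM (log2 fold change 0.26, SE 0.32, adjusted p = 0.592). The IFIT family, whose proteins bind viral RNA, also held 0 calls by edgeR and DESeq2 and 0 at an unadjusted p under 0.05. IFIT1 (2.58 and 3.17 CPM in DMSO, 4.25 and 4.29 in DZNep, log2 fold change 0.58, SE 0.27, edgeR adjusted p = 0.144) stood higher in both DZNep libraries, as did 26.3% of all tested genes. So did IFIT3, with 2.97 and 3.16 against 3.92 and 3.89 CPM (log2 fold change 0.35, SE 0.27, adjusted p = 0.374), and IFIT5, with 5.75 and 5.65 against 8.23 and 6.55 CPM (log2 fold change 0.37, SE 0.22, adjusted p = 0.257). IFIT2, not tested, was highest in DZNep 0 Gy with 146 counts, while DMSO 0 Gy, DMSO 4 Gy and DZNep 4 Gy held 53, 54 and 64. IFIT2 and CMPK2 were thus both highest in the same library.

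ISG15, a ubiquitin-like protein that is attached to other proteins, stood at 0.680 and 1.03 CPM in DMSO at 0 and 4 Gy and 1.36 and 1.65 CPM in DZNep (log2 fold change 0.84, SE 0.34, adjusted p = 0.0931). It was higher in both DZNep libraries and did not pass. USP18, the protease that removes ISG15, was at 9.45, 7.16, 9.42 and 11.4 CPM (DMSO at 0 and 4 Gy, then DZNep at 0 and 4 Gy), equal at 0 Gy and apart only after radiation (log2 fold change 0.33, SE 0.22, adjusted p = 0.297). USP18 has a close copy, USP41, so its count is uncertain. HERC5, the main ISG15 ligase, had 56 and 39 counts in DMSO and 79 and 74 in DZNep and was not tested, and its neighbour HERC6 was at 3.15 and 4.92 CPM in DMSO and 2.25 and 4.16 CPM in DZNep (log2 fold change -0.36, SE 0.27, adjusted p = 0.355).

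**Figure D4:**
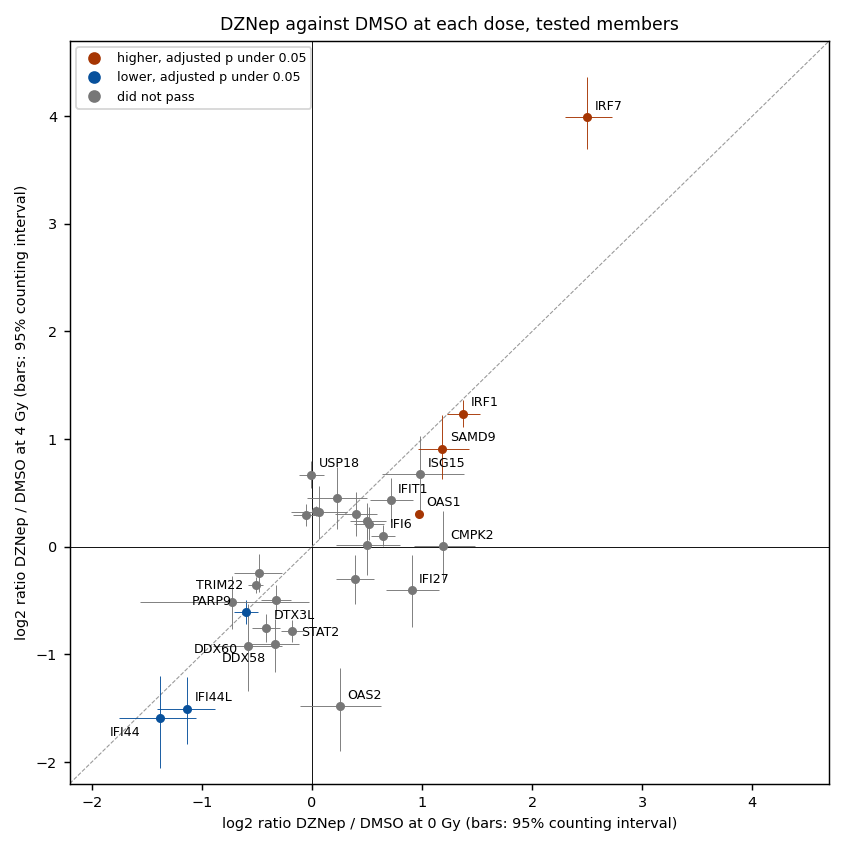
Log2 ratio of DZNep to DMSO at 0 Gy (x axis) and at 4 Gy (y axis) for the 31 tested members, with 95% counting intervals and the line of equal ratios dashed. IRF7 lies above the line (2.50 and 3.99) and IRF1, SAMD9, PARP9, IFI44 and IFI44L near it, while OAS2, IFI27 and CMPK2 lie far below it.

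In pairs of libraries, IRF7, IRF1, CMPK2 and SAMD9 had the largest ratios of DZNep to DMSO among tested members at 0 Gy (5.65-, 2.59-, 2.28- and 2.27-fold), and IFI44 and IFI44L the lowest (log2 -1.38 and -1.13). At 4 Gy, CMPK2 was nearly equal in both libraries (log2 0.008), whereas IRF7, IRF1 and SAMD9 stayed higher with DZNep (log2 3.99, 1.24 and 0.91) and IFI44 and IFI44L lower (-1.59 and -1.50). These ratios have no replicate and no test.

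With radiation a single member, TRIM22, rose and none fell. TRIM22, a ubiquitin ligase that restricts viruses and is also known as a target of p53, stood at 0.318 CPM in DMSO 0 Gy and 0.186 CPM in DZNep 0 Gy, and at 3.05 CPM in DMSO 4 Gy and 2.13 CPM in DZNep 4 Gy. Both irradiated libraries were about an order of magnitude above both unirradiated ones (10.4-fold; log2 fold change 3.38, SE 0.37, adjusted p = 0.000395). The rise was of like size in DMSO (log2 ratio 3.20, interval 2.80 to 3.75) and in DZNep (3.41, 2.91 to 4.19). Within each dose, TRIM22 was lower with DZNep, which did not pass (log2 fold change -0.62, SE 0.35, adjusted p = 0.219). The 1 member of 31 (3.23%) compares with 2.17% of all tested genes called higher after radiation, and the 0 called lower with 0.897%. DESeq2 also called 1 and 0. By edgeR, 5 and 0 members had an unadjusted p under 0.05, counts to which these shares, at an adjusted p, do not apply. With the drug left out of the model, edgeR gave TRIM22 an adjusted p of 0.928. The median log2 fold change with radiation was 0.094 over the tested members and 0.007 over all tested genes. By role it ran from -0.21 over the IFI genes and -0.19 over the other effectors to 0.43 over the ISG15 group.

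The other members that stood higher in both irradiated libraries than in both unirradiated ones were HERC6, IFI6, IFI35, IFIH1 and MX1, which makes 6 of 31 with TRIM22, beside 15.8% of all tested genes. IFI35 stood at 9.08 and 8.72 CPM at 0 Gy (DMSO and DZNep) and at 12.2 and 14.9 CPM at 4 Gy (log2 fold change 0.60, SE 0.19, adjusted p = 0.102), HERC6 had log2 fold change 0.76, SE 0.27, adjusted p = 0.130, and IFI6 stood at 8.09 and 12.6 CPM at 0 Gy and 14.1 and 15.2 CPM at 4 Gy (log2 fold change 0.53, SE 0.20, adjusted p = 0.151). IRF1 had a log2 fold change of 0.63 with radiation (SE 0.20, adjusted p = 0.0985). With the test limited to genes that reached 10 CPM in 2 or more libraries, IRF1 and IFI35 were called higher. Lower in both irradiated libraries were IFI27, SAMD9L and ISG20, 3 of 31 beside 17.1% of all tested genes, none of which passed. The radiation ratios in DMSO and in DZNep, which share no library, had the same sign for 22 of 31 members (71.0%) against 65.7% of all tested genes.

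**Figure D5:**
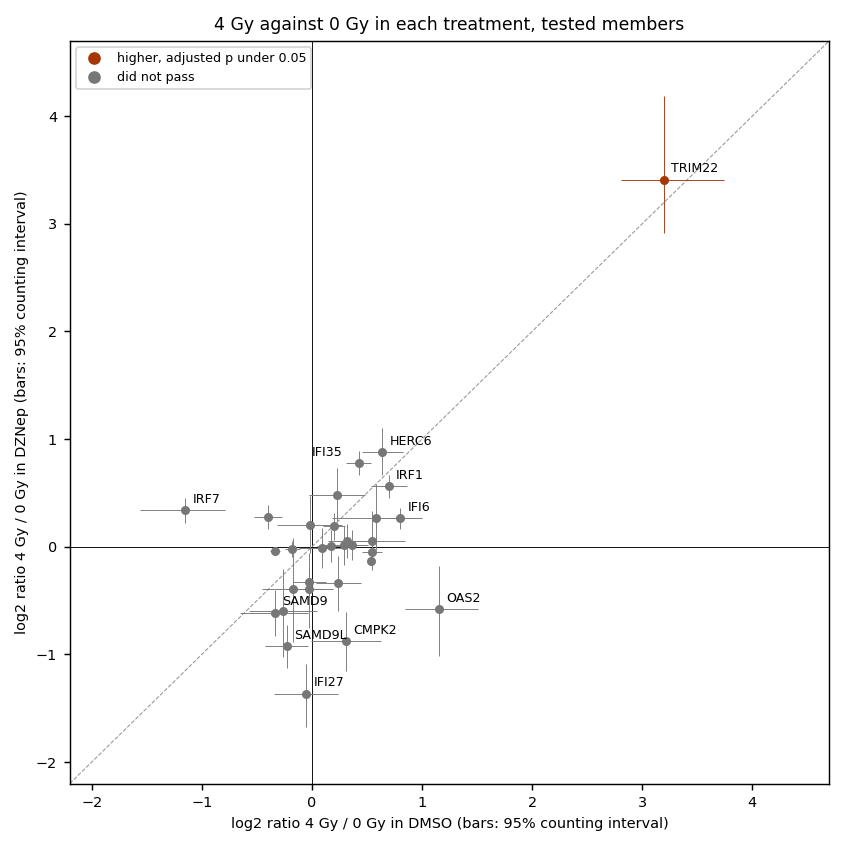
Log2 ratio of 4 Gy to 0 Gy in DMSO (x axis) and in DZNep (y axis) for the 31 tested members, with 95% counting intervals and the line of equal ratios dashed. TRIM22 stands alone at 3.20 and 3.41, most members lie within 1 of zero on both axes, and IRF7 and OAS2 lie on opposite sides of zero in the 2 treatments.

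Whether radiation acted differently with the drug has no error estimate in this design, so the following are values only. The radiation ratio in DZNep minus that in DMSO was 1.49 for IRF7. IRF7 had 219 counts in DMSO 0 Gy and 79 in DMSO 4 Gy, and 1167 and 1296 in the DZNep libraries. The difference was -1.74 for OAS2, -1.31 for IFI27 and -1.18 for CMPK2, all 3 under 4 CPM. OAS1 was -0.66, STAT2 -0.60 and USP18 0.67, whereas IRF1 (-0.14) and PARP9 (-0.013) were close to zero. Cells given both treatments, set against those given neither, had IRF7 at a log2 ratio of 2.84 (interval 2.64 to 3.06), IRF1 at 1.93 (1.80 to 2.08), TRIM22 at 2.68 (2.27 to 3.24), IFI44 at -1.77 (-2.22 to -1.39) and IFI44L at -1.53 (-1.85 to -1.24). These ratios share libraries with those above.

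Interferon genes themselves were at or near zero. Of 21 ligand genes listed, 16 had no count in any library, among them IFNB1 and IFNG, and the highest count was 9, of IFNL1 in DZNep 4 Gy. A count of 0 allows up to 0.0217 to 0.0267 CPM. Of 9 receptor and kinase genes, 1 fell with DZNep and 0 rose (edgeR; 2 higher at an unadjusted p under 0.05 and 1 by DESeq2), beside 12.3% and 10.8% of all tested genes. The fall was that of IFNAR2, a chain of the type I interferon receptor, from 84.5 and 76.6 CPM in DMSO to 41.2 and 38.9 CPM in DZNep (log2 fold change -1.01, SE 0.16, adjusted p = 0.000721). IFNAR1, the other chain, did not pass (log2 fold change -0.14, SE 0.26, adjusted p = 0.740), nor did JAK1 (log2 fold change 0.48, SE 0.16, adjusted p = 0.0503) or TYK2 (log2 fold change 0.16, SE 0.17, adjusted p = 0.520).

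Several genes of the pathway that induces interferon rose with DZNep. Of 14 tested genes of 15 listed, 4 rose (28.6%, beside 10.8% of all tested genes) and 0 fell, also at an unadjusted p under 0.05 and by DESeq2, with a median log2 fold change of 0.32. The list was chosen with earlier results of these data known, and the part of that choice in the higher share was not tested. TMEM173, which encodes the adaptor STING, rose from 2.94 and 4.57 CPM in DMSO to 7.68 and 10.8 CPM in DZNep (log2 fold change 1.31, SE 0.22, adjusted p = 0.00131). TICAM1, the adaptor of the RNA receptor TLR3, rose by 0.88 on the log2 scale (SE 0.17), IRF3 by 0.82 (SE 0.16) and TRIM25, a ubiquitin ligase that acts on RIG-I, by 0.59 (SE 0.16). All 4 calls were lost with dose left out of the model (edgeR adjusted p = 0.0566 for TMEM173, 0.139 for TICAM1, 0.0505 for IRF3 and 0.119 for TRIM25). MAVS did not pass (log2 fold change -0.25, SE 0.15, adjusted p = 0.253). Of 24 tested among 30 other interferon-stimulated genes, 2 rose (8.33%, near the 10.8% of all tested genes), and the median was -0.008. IFITM1 (0.99, SE 0.17) and IFITM2 (0.50, SE 0.15), which block viral entry, rose; their sequences are alike, so their counts are uncertain. TRIM5 (-0.84, SE 0.19), a neighbour of TRIM22, was among those that fell. Of these, IFITM2 and TRIM5 were not called with dose left out (edgeR adjusted p = 0.166 and 0.164), and IFITM2 was not called without the filter on low counts either (0.0577). Of 17 negative regulators, the cytokine signalling inhibitor gene SOCS3 (0.66, SE 0.15) and IRF2BP2 (0.78, SE 0.16) rose and the phosphatase gene PTPN6 (-1.28, SE 0.24) fell, 2 and 1 of 17 beside 10.8% and 12.3% of all tested genes. With dose left out, none of the 3 was called (edgeR adjusted p = 0.109, 0.0642 and 0.108). Radiation had 0 calls by edgeR among the 64 tested pathway genes, beside 2.17% of all tested genes called higher and 0.897% lower. DESeq2 called 2 of them higher. At an unadjusted p under 0.05 by edgeR, 12 were higher and 1 lower, counts to which these shares, at an adjusted p, do not apply.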

How the data were processed

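The 4 libraries were mRNA-seq libraries (Lexogen SENSE kit, Trizol RNA), per the labels' protocols. What the authors deposited is 1 table of raw counts for each library, with genes by symbol. The submitters' processing notes name TopHat, edgeR and the build hg19; their versions, the counting program, its annotation and whether it used strand are unknown from these sources. Counts were scaled by TMM in edgeR 4.0.16 (R 4.3.3), and genes at 1 CPM in at least 2 libraries were fitted with drug and dose as additive terms over all 4 libraries (quasi-likelihood test, Benjamini-Hochberg over 13378 genes, 1 residual degree of freedom). SE is the log2 fold change over the square root of F. Ratios of 2 libraries used a prior count of 2 and have no test. Exon lengths came from GENCODE on another build, so no file coordinates are given. DESeq2 1.42.0, other scalings, filters, prior counts and no covariate were tried. Members and lists were chosen with earlier results of these data known. Named were members past the threshold or at 10 CPM, and pathway genes past it, at most 4 per list; members outside this rule were named by subgroup after their values were seen. The tables carry no molecular identifiers, so intervals cover counting error only. Values of 1 pathway gene and 1 marker gene are not reported here.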

Additional observations from a re-analysis of the deposited data

Results flagged for a closer look

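In the following genes the same contrast went in opposite directions in pairs of libraries that share none, with both counting intervals off zero; the difference was not tested. The radiation ratio in DMSO and in DZNep was 0.24 and -0.34 for DDX58, 0.53 and -0.13 for OAS1, 1.16 and -0.58 for OAS2, -1.15 and 0.34 for IRF7, and -0.40 and 0.27 for USP18 (log2). The DZNep ratio at 0 Gy and at 4 Gy was 0.91 and -0.41 for IFI27, and 0.39 and -0.30 for SAMD9L (log2). With 1 library on each side, none of these has a replicate check.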

How the results depend on the processing

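No paired analysis was possible because each group is 1 library and the labels number no replicates, and leaving out a library leaves the additive model no residual degrees of freedom. RLE scaling kept all 7 DZNep calls and the 1 radiation call among the members. Without the other factor in the model the members called were 1 higher (IRF7) and 0 lower with DZNep and 0 and 0 with radiation (edgeR; 4, 4, 1 and 0 at an unadjusted p under 0.05, the cause was not tested). Over all genes they were 355, 366, 0 and 0 (295 and 229 at an unadjusted p under 0.05 with radiation). With a 10 CPM filter, which leaves 8 members and not IRF7, SAMD9, IFI44, IFI44L or TRIM22, they were 2 and 1 with DZNep and 2 and 0 with radiation, and the radiation median was 0.23; all genes called with radiation were 590 and 441. Radiation calls over all genes, 290 higher and 120 lower, became 134 and 65 with no filter, 447 and 214 with DESeq2, and 364 and 281 with plain library size. PARP9 was not called by DESeq2 or without a filter (adjusted p = 0.0600). No ratio of at least 2-fold reversed under the other prior counts or scalings. Members under 1 CPM could show only large changes.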
